A study of Mus musculus with 8 samples.

Results

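The differentiation of control progenitors was followed in the 4 libraries of mouse brain neural progenitor cells (strain FvB/C57BL/6) labelled non-targeted, out of 8 RNA sequencing libraries in the series. Libraries 7 and GFP-D came from differentiating cells. Per the labels' protocols these spent 5 days without EGF and bFGF, in neurobasal medium with B27 supplement. Libraries TRC and GFP came from proliferating cells, kept in N2 medium with EGF and bFGF at 20 ng/ml. The medium and the growth factors thus changed together, and their effects cannot be told apart. The protocols describe lentiviral hairpin delivery for the knockdown and puromycin selection for 3 days, and they name the control constructs no further than the library names do. Every RNA was extracted with Trizol, and 1 ug of total RNA went into each TruSeq library. The other 4 libraries, 1 for each state with a FUBP1 or CIC label, enter only the comparison between arms near the end. Of 20793 rows in the deposited table, 11548 reached 1 FPKM in at least 2 of the 4 non-targeted libraries and were tested. FPKM counts fragments relative to transcript length and to the mapped fragments of the library, so it measures a level per length of transcript.

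Neural progenitors are dividing precursors that can give rise to neurons, astrocytes and oligodendrocytes. In culture they are held in division by EGF and bFGF, which act through receptor tyrosine kinases and the RAS and ERK cascade, and ERK in turn raises its own feedback inhibitors such as the Sprouty proteins. When the growth factors are withdrawn, progenitors generally leave the cell cycle and take on features of neurons or glia, with astrocytes known by genes for water and glutamate transport, intermediate filaments and lipid carriers.

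The labels do not say whether the 2 libraries of a state came from separate cultures, so each p-value reflects how far these particular libraries differ, and that difference may be technical. Across the rows tested, 7 and GFP-D differed by a median of 0.30 on the log2(FPKM + 1) scale and TRC and GFP by 0.42, with 1031 and 1884 rows apart by more than 2-fold. The absolute sequencing depth is unknown, and 11489 rows in 7, 11345 in GFP-D, 10945 in TRC and 11077 in GFP reached 1 FPKM. An exact 0 in this table can be a failed estimate rather than a lack of RNA. Actr3, a widely used actin regulator, was listed at 93.2 and 0 FPKM in 7 and GFP-D, against 116 and 109 FPKM in TRC and GFP. Gtf2i, a general transcription factor gene, was likewise listed at 0 in TRC alone. The library labelled GFP held less Fubp1, a gene the study targets in another arm, than the other 3 non-targeted libraries. Fubp1 (chromosome 3, 151873422 to 151899794, mm9) stood at 24.8 and 25.4 FPKM in 7 and GFP-D, against 50.2 and 12.4 FPKM in TRC and GFP, so TRC and GFP lay on either side of both differentiating libraries, and its log2 difference was -0.01 (SE 0.64, limma adjusted p = 0.996). Cic stood at 42.0 and 35.3 FPKM in 7 and GFP-D, against 39.4 and 33.8 FPKM in TRC and GFP. Kdm1a, which encodes the demethylase LSD1, stood at 48.8 and 50.6 FPKM in 7 and GFP-D, against 50.3 and 41.2 FPKM in TRC and GFP. The groups overlapped for all 3 genes, and no call was made for any of them.

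Differentiating cells held far less RNA for DNA replication and mitosis, with 21 of 32 and 16 of 32 genes called lower, against 1.08% of all rows. Of the astrocyte markers 3 of 26 were called higher, against 0.71% of all rows. The lists were chosen with earlier results of these data known, so these counts describe the lists and are no test of them. With limma and Benjamini-Hochberg adjustment over all 11548 rows, 207 rows (1.79%) passed an adjusted p of 0.05. Of these, 82 (0.71%) were higher and 125 (1.08%) lower in the differentiating libraries, and 3119 rows had an unadjusted p under 0.05. The log2 differences of called rows ran between 1.74 and 4.73 among the higher ones and between -6.17 and -1.84 among the lower ones. Their adjusted p-values all lay between 0.0431 and 0.0498, close to the threshold, and all 207 were more than 2-fold apart in each of the 4 pairings of a differentiating with a proliferating library. With limma, no row was called without 7, without GFP-D or without TRC (1653, 1615 and 2216 rows at an unadjusted p under 0.05), and 853 were called without GFP. No row was called either with a pseudocount of 5 FPKM or without the filter on low values, where the smallest adjusted p was 0.0614 and 0.133. All 207 kept their sign in each of these fits. Because the test had 2 residual degrees of freedom, a count that uses no test is also given for the lists. By that rule, which asks for more than 1 log2 unit in all 4 pairings, 565 rows (4.89%) were higher and 539 (4.67%) lower. In 3763 rows (32.6%) both differentiating libraries lay above both proliferating ones, and in 3342 rows (28.9%) both lay below. An exact permutation test of 2 libraries against 2 cannot go below p = 0.333 for a single gene.

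**Figure D1:**
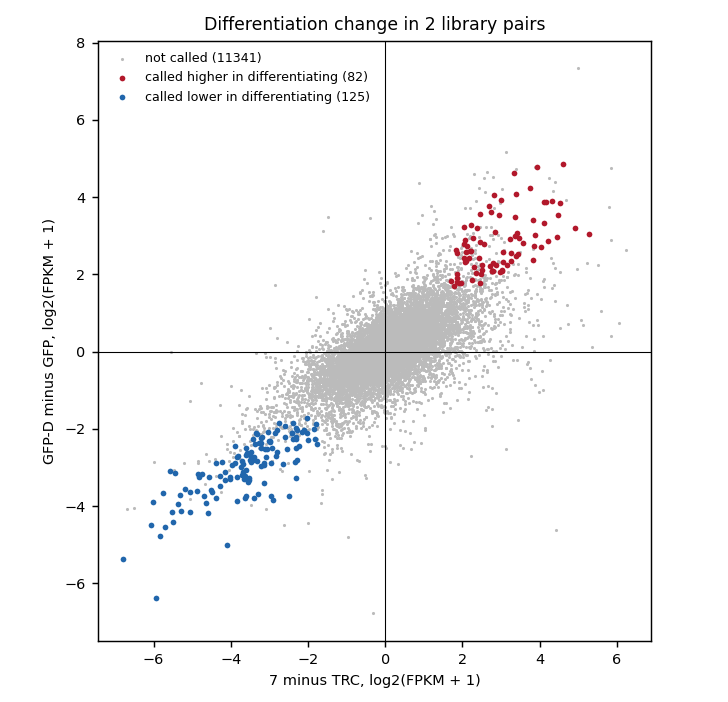
Each point is 1 of the 11548 rows tested, placed by its log2(FPKM + 1) difference between 7 and TRC (x axis) and between GFP-D and GFP (y axis). The 82 rows called higher lie at the upper right and the 125 called lower at the lower left, so each called row has the same sign in both pairings.

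The 12 largest rises among called genes had varied roles. Nrbp2 (chromosome 15, 75916024 to 75920443, mm9), a pseudokinase related to a nuclear receptor binding protein, stood at 149 FPKM in 7 and 357 FPKM in GFP-D, against 5.17 FPKM in TRC and 11.3 FPKM in GFP. That is a log2 difference of 4.73 (SE 0.55, limma adjusted p = 0.0431). S1pr3, a receptor for the lipid mediator sphingosine 1-phosphate, stood at 16.1 and 46.1 FPKM in 7 and GFP-D, against 0.120 and 0.708 FPKM in TRC and GFP, with a log2 difference of 4.36 (SE 0.56, limma adjusted p = 0.0443). In both genes GFP-D held more than 7, and neither gene had overlapping groups, as the choice of these genes required.

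Clu (chromosome 14, 66587320 to 66600382) encodes clusterin, a secreted chaperone that astrocytes make. It stood at 43.8 FPKM in 7 and 29.3 FPKM in GFP-D, against 0.953 FPKM in TRC and 1.09 FPKM in GFP, which gives 36.6 ± 10.3 FPKM in differentiating and 1.02 ± 0.0950 FPKM in proliferating cells (SD, n = 2 each) and a log2 difference of 4.19 (SE 0.33, limma adjusted p = 0.0431). Agt encodes angiotensinogen, which astrocytes make in the brain. Its level was 171 and 86.2 FPKM in 7 and GFP-D, against 3.43 and 9.63 FPKM in TRC and GFP, a log2 difference of 4.16 (SE 0.55, limma adjusted p = 0.0444). For Clu the libraries of each state lay close together, and for Agt 7 held more than GFP-D and GFP more than TRC.

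Tgm2, a transglutaminase that crosslinks proteins, stood at 62.2 and 91.5 FPKM in 7 and GFP-D, against 2.14 and 5.21 FPKM in TRC and GFP (log2 difference 4.11, SE 0.43, adjusted p = 0.0431). The death receptor gene Fas stood at 115 and 68.9 FPKM in 7 and GFP-D, against 2.81 and 6.54 FPKM in TRC and GFP (log2 difference 4.07, SE 0.45, adjusted p = 0.0431). Abat, the transaminase that breaks down GABA, was even within each state, at 56.1 and 45.4 FPKM in 7 and GFP-D, against 2.18 and 2.174 FPKM in TRC and GFP (log2 difference 4.02, SE 0.28, adjusted p = 0.0431). All 3 genes were at least several-fold apart between any differentiating and any proliferating library. Galnt16, an enzyme that starts O-linked glycosylation, stood at 47.3 and 38.1 FPKM in 7 and GFP-D, against 1.79 and 1.66 FPKM in TRC and GFP (log2 difference 3.997, SE 0.28, adjusted p = 0.0431). Nsg2, an endosomal protein of neurons, stood at 46.8 and 87.0 FPKM in 7 and GFP-D, against 2.53 and 3.68 FPKM in TRC and GFP (log2 difference 3.99, SE 0.39, adjusted p = 0.0431). The remaining rises were Amy1 (amylase), 1700084C01Rik and the phospholipase Plcd4, with log2 differences of 4.02, 3.98 and 3.74.

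**Figure D2:**
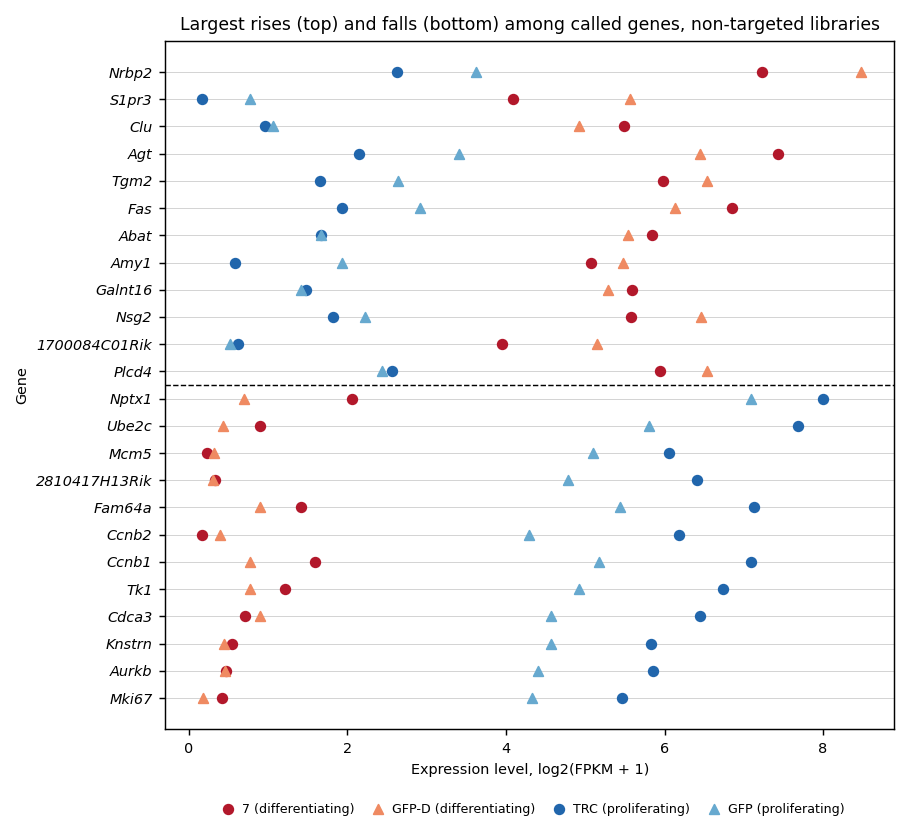
Levels of the 12 largest rises (above the dashed line) and the 12 largest falls (below it) among called genes, as log2(FPKM + 1) in each of the 4 non-targeted libraries; red and orange points are differentiating and blue points proliferating libraries. The groups are separated in every gene, as the choice of genes required. Among the falls TRC lies to the right of GFP in all 12.

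The 12 largest falls were Nptx1 and 11 others, most of them genes of DNA replication and mitosis described further on. Nptx1 (chromosome 11, 119400033 to 119409134), a secreted pentraxin of neurons, stood at 3.16 FPKM in 7 and 0.624 FPKM in GFP-D, against 256 FPKM in TRC and 135 FPKM in GFP. Its log2 difference of -6.17 (SE 0.56, limma adjusted p = 0.0431) was the largest fall called. Ube2c (chromosome 2, 164595429 to 164598402), the ubiquitin-conjugating enzyme of the anaphase-promoting complex, stood at 0.864 FPKM in 7 and 0.349 FPKM in GFP-D, against 205 FPKM in TRC and 54.9 FPKM in GFP, a log2 difference of -6.08 (SE 0.65, limma adjusted p = 0.0431). In both genes the differentiating libraries held under 4 FPKM while the proliferating ones held over 50.

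All 32 genes of the DNA replication list lay more than 2-fold lower in the differentiating libraries in all 4 pairings, against 4.67% of all rows, and limma called 21 of the 32, against 1.08% of all rows. The calls depended on the libraries kept, as given above for all rows. The median log2 difference of the 32 genes was -2.68, against 0.06 over all rows. It was -3.18 for 7 minus TRC and -2.27 for GFP-D minus GFP. With 1 library left out, it ran between -3.07 without GFP and -2.31 without TRC. Among the subunits of the MCM helicase, which unwinds DNA at the fork, Mcm5 (chromosome 8, 77633427 to 77652338) stood at 0.175 FPKM in 7 and 0.241 FPKM in GFP-D, against 65.6 FPKM in TRC and 33.2 FPKM in GFP (log2 difference -5.30, SE 0.41, adjusted p = 0.0431). Mcm2 stood at 3.92 and 4.64 FPKM in 7 and GFP-D, against 68.9 and 52.7 FPKM in TRC and GFP (log2 difference -3.54, SE 0.29, adjusted p = 0.0431). Mcm3, Mcm4, Mcm6 and Mcm7 were called too, with log2 differences of -3.60, -2.66, -3.72 and -2.56. Mcm5 thus stood apart from the other subunits, at under 1 FPKM in both differentiating libraries, while Mcm7 kept 12.4 and 15.5 FPKM in 7 and GFP-D, against 109 and 68.6 FPKM in TRC and GFP.

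The loading factor Cdt1, which brings MCM to origins, stood at 2.54 and 2.56 FPKM in 7 and GFP-D, against 33.4 and 44.9 FPKM in TRC and GFP (log2 difference -3.49, SE 0.29, adjusted p = 0.0431). The chromatin assembly factor gene Chaf1b stood at 1.70 and 1.97 FPKM in 7 and GFP-D, against 30.1 and 27.8 FPKM in TRC and GFP (log2 difference -3.40, SE 0.28, adjusted p = 0.0431). In each of these genes the 2 libraries of a state were close to each other. The sliding clamp gene Pcna kept a high level, at 46.2 and 46.1 FPKM in 7 and GFP-D, against 383 and 232 FPKM in TRC and GFP (log2 difference -2.66, SE 0.33, adjusted p = 0.0443). In nucleotide supply, the thymidine kinase gene Tk1 stood at 1.32 and 0.705 FPKM in 7 and GFP-D, against 106 and 29.2 FPKM in TRC and GFP (log2 difference -4.83, SE 0.64, adjusted p = 0.0444), and the ribonucleotide reductase gene Rrm1 at 14.8 and 16.3 FPKM in 7 and GFP-D, against 114 and 73.8 FPKM in TRC and GFP (log2 difference -2.49, SE 0.31, adjusted p = 0.0443). The partner subunit Rrm2 stood at 6.02 and 2.97 FPKM in 7 and GFP-D, against 233 and 55.1 FPKM in TRC and GFP, and its log2 difference of -4.44 did not pass the test (adjusted p = 0.0548). TRC and GFP were far apart for Rrm2 and close for Mcm2. TRC lay above GFP in 31 of the 32 genes, with a median gap of 0.75.

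All 32 genes of the mitosis list also lay more than 2-fold lower in all 4 pairings, and limma called 16, against 1.08% of all rows. The calls depended on the libraries kept, as given above for all rows. The median log2 difference was -3.89, with -4.57 for 7 minus TRC and -3.18 for GFP-D minus GFP. With 1 library left out, it ran between -4.76 without GFP and -3.06 without TRC. Ccnb1, which encodes the mitotic cyclin B1, stood at 2.01 and 0.708 FPKM in 7 and GFP-D, against 136 and 35.1 FPKM in TRC and GFP (log2 difference -4.95, SE 0.69, adjusted p = 0.0467), and Ccnb2 stood at 0.121 and 0.314 FPKM in 7 and GFP-D, against 71.3 and 18.5 FPKM in TRC and GFP (log2 difference -4.95, SE 0.65, adjusted p = 0.0444). The kinase gene Aurkb, of the chromosomal passenger complex, stood at 0.388 and 0.368 FPKM in 7 and GFP-D, against 56.7 and 20.1 FPKM in TRC and GFP (log2 difference -4.66, SE 0.53, adjusted p = 0.0431). Mki67, whose protein coats mitotic chromosomes and is the Ki-67 marker of dividing cells, stood at 0.331 and 0.135 FPKM in 7 and GFP-D, against 43.2 and 19.1 FPKM in TRC and GFP (log2 difference -4.60, SE 0.46, adjusted p = 0.0431). All 4 genes fell to about 2 FPKM or less in both differentiating libraries.

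The spindle crosslinker Prc1 stood at 6.85 and 3.97 FPKM in 7 and GFP-D, against 112 and 71.3 FPKM in TRC and GFP (log2 difference -3.85, SE 0.38, adjusted p = 0.0431), and the kinase Cdk1, the partner of cyclin B, stood at 7.88 and 8.48 FPKM in 7 and GFP-D, against 125 and 61.8 FPKM in TRC and GFP (log2 difference -3.28, SE 0.40, adjusted p = 0.0443). Cdk1 therefore kept a higher level than its cyclins. Cdc20, which activates the anaphase-promoting complex, stood at 0.233 and 0.273 FPKM in 7 and GFP-D, against 112 and 20.1 FPKM in TRC and GFP. Its log2 difference of -5.28 had an SE of 0.79 and missed the test (adjusted p = 0.0502). Ccna2, which encodes cyclin A, stood at 2.167 and 2.95 FPKM in 7 and GFP-D, against 139 and 32.2 FPKM in TRC and GFP and missed it too (adjusted p = 0.0547). In both genes TRC held over 4 times as much as GFP. TRC lay above GFP in all 32 mitosis genes, by a median of 1.58, and 7 lay above GFP-D in 23, by a median of 0.28.

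Many mitotic genes are known to carry in their promoters a cell cycle genes homology region (CHR), read by the DREAM and MuvB complexes, and CCAAT boxes, read by NF-Y. Of 15 called mitosis genes with a RefSeq promoter, 5 held the CHR letters TTTGAA on either strand in the 100 bases before the start site and the others did not. The bases of 4 of these 5 genes, taken in order of p, are shown, from RefSeq on GRCm38.p6 (a later build than the mm9 of the expression table), 5′ to 3′ on the gene's strand. Capitals mark TTTGAA or its reverse complement TTCAAA, and CCAAT or its reverse complement ATTGG.
Mki67 (chr7:135716380-135716479, minus strand): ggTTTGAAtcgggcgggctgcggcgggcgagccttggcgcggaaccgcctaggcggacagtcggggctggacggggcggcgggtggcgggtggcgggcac
Ube2c (chr2:164769829-164769928, plus strand): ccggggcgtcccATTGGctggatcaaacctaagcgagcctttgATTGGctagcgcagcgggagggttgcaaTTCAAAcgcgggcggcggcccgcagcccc
Top2a (chr11:99024190-99024289, minus strand): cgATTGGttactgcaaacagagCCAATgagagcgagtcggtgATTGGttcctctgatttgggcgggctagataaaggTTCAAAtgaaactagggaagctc
Cdk1 (chr10:69352913-69353012, minus strand): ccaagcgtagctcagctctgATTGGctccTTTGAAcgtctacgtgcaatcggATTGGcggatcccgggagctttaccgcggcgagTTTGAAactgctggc

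Of the 32 mitosis genes, 27 matched a promoter in the RefSeq table, and 7 of these (25.9%) held TTTGAA on either strand in the 100 bases before the start. The share was 14.3% among the 105 called lower genes with a promoter (15 genes) and 2.84% among the 9339 tested genes with one. It was also 22.2% (4 of 18) among interferon-stimulated genes, a list with no call. CCAAT on either strand was found in 20 of 27 mitosis promoters (74.1%), in 51 of the 105 (48.6%) and in 24% of those of tested genes. Of the promoters shown, the last 3 held both TTTGAA and CCAAT, and Mki67 held TTTGAA without CCAAT. The letters TTGGCGC or TTCGCGC, which an E2F site can have, were in 3 of 27 DNA replication promoters (11.1%). They were in 1 of 27 mitosis promoters (3.7%) and in 2.88% of those of tested genes. These matches describe letters in a fixed window and are not shown to be sites.

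Of the 125 falls called, 37 were in the replication or mitosis lists and 79 were in none of the 35 lists examined. The genes named next come from the 79 and were chosen after their values were seen. The kinetochore gene Ndc80 stood at 0.137 and 0.0553 FPKM in 7 and GFP-D, against 24.7 and 12.04 FPKM in TRC and GFP. Its partner Nuf2 stood at 0.552 and 0.334 FPKM in 7 and GFP-D, against 44.8 and 15.2 FPKM in TRC and GFP. These levels in differentiating cells were under 1 FPKM. Odc1, the first enzyme of polyamine synthesis, stood at 42.3 and 59.5 FPKM in 7 and GFP-D, against 903 and 447 FPKM in TRC and GFP (log2 difference -3.64, SE 0.42, adjusted p = 0.0431). Tmem173, which encodes the STING adaptor of the response to cytosolic DNA, stood at 0.318 and 0.807 FPKM in 7 and GFP-D, against 21.7 and 56.9 FPKM in TRC and GFP (log2 difference -4.55, SE 0.52, adjusted p = 0.0431). Here GFP held more than TRC, the reverse of the order in most division genes.

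Genes that answer to growth factor signalling lay lower as well. In the list of ERK feedback and growth factor response genes, limma called 3 of 20 lower, against 1.08% of all rows, and 0 higher. In all 4 pairings 6 were more than 2-fold lower, against 4.67% of all rows. The median log2 difference was -1.37, with -1.09 for 7 minus TRC and -1.60 for GFP-D minus GFP, and 18 of 20 estimates were negative. Spry1, a Sprouty inhibitor of receptor tyrosine kinase signalling, stood at 7.21 FPKM in 7 and 6.22 FPKM in GFP-D, against 60.6 FPKM in TRC and 103 FPKM in GFP (log2 difference -3.38, SE 0.34, adjusted p = 0.0431). Dusp6 (chromosome 10, 98725865 to 98730123), the phosphatase that switches ERK off, stood at 16.5 FPKM in 7 and 11.5 FPKM in GFP-D, against 202 FPKM in TRC and 123 FPKM in GFP (log2 difference -3.42, SE 0.36, adjusted p = 0.0431). Spry4, a second Sprouty gene, stood at 5.34 and 3.56 FPKM in 7 and GFP-D, against 31.1 and 32.1 FPKM in TRC and GFP (log2 difference -2.60, SE 0.30, adjusted p = 0.0431). In these genes the differentiating libraries lay close together, and all proliferating values exceeded 30 FPKM.

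Ccnd1, the D cyclin that growth factors induce, stood at 131 and 45.3 FPKM in 7 and GFP-D, against 1132 and 775 FPKM in TRC and GFP. Its log2 difference of -3.58 missed the threshold (adjusted p = 0.0522). The ETS factor gene Etv4, a classical ERK target, stood at 13.6 and 1.41 FPKM in 7 and GFP-D, against 44.6 and 27.7 FPKM in TRC and GFP (adjusted p = 0.143). Its relative Etv5 stood at 114 and 75.8 FPKM in 7 and GFP-D, against 218 and 348 FPKM in TRC and GFP (adjusted p = 0.0880). Neither was called, and in both the groups did not overlap, as in 28.9% of all rows on this side. Il17rd, an inhibitor of FGF signalling, went the other way, at 2.55 and 2.47 FPKM in 7 and GFP-D, against 0.330 and 0.873 FPKM in TRC and GFP, without a call (adjusted p = 0.127). Fos, an early response gene, had overlapping groups.

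Among EGF and FGF receptors and ligands, 14 of 22 genes passed the filter. Limma called 1 higher and 1 lower, against 0.71% and 1.08% of all rows. In all 4 pairings 2 were more than 2-fold higher and 1 lower, against 4.89% and 4.67% of all rows. Erbb4, a receptor for neuregulins, stood at 8.32 and 8.66 FPKM in 7 and GFP-D, against 0.281 and 1.03 FPKM in TRC and GFP (log2 difference 2.56, SE 0.36, adjusted p = 0.0485). Areg, which encodes the EGF family ligand amphiregulin, stood at 0.697 and 1.21 FPKM in 7 and GFP-D, against 10.8 and 7.98 FPKM in TRC and GFP (log2 difference -2.41, SE 0.34, adjusted p = 0.0474). The receptor for EGF itself, Egfr, stood at 47.8 and 75.7 FPKM in 7 and GFP-D, against 7.71 and 29.4 FPKM in TRC and GFP, and Fgfr3 at 47.0 and 22.7 FPKM in 7 and GFP-D, against 6.84 and 3.67 FPKM in TRC and GFP. Both lay higher in the 2 differentiating libraries, with log2 differences of 1.91 and 2.48 that did not pass the test (adjusted p = 0.145 and 0.0654). Fgfr1 stood at 126 and 188 FPKM in 7 and GFP-D, against 65.8 and 97.1 FPKM in TRC and GFP and was not called either (adjusted p = 0.166).

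Progenitor markers did not move as a group. Of 22 tested members (of 24), limma called Fabp7 lower, against 1.08% of all rows, and none higher. In all 4 pairings 3 lay more than 2-fold lower and 0 higher, against 4.67% and 4.89% of all rows. The median log2 difference was 0.39. Fabp7, the brain fatty acid binding protein of radial glia, stood at 202 FPKM in 7 and 149 FPKM in GFP-D, against 1002 FPKM in TRC and 1434 FPKM in GFP (log2 difference -2.79, SE 0.34, adjusted p = 0.0443). Hmga2, a chromatin protein of young progenitors, stood at 32.8 and 12.1 FPKM in 7 and GFP-D, against 222 and 106 FPKM in TRC and GFP (adjusted p = 0.0713), and the Notch effector Hes1 at 5.72 and 7.12 FPKM in 7 and GFP-D, against 16.3 and 26.6 FPKM in TRC and GFP (adjusted p = 0.0789). Neither of these passed the test. Their groups did not overlap, which the rule for naming genes asks for and which held for 28.9% of all rows on this side.

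The transcription factor Sox2, which maintains progenitors, stood at 300.2 and 327 FPKM in 7 and GFP-D, against 116 and 182 FPKM in TRC and GFP (log2 difference 1.10, adjusted p = 0.117). Pax6 stood at 13.5 and 18.4 FPKM in 7 and GFP-D, against 2.93 and 10.8 FPKM in TRC and GFP. The filament gene Nes, for nestin, stood at 42.3 and 97.0 FPKM in 7 and GFP-D, against 64.9 and 72.3 FPKM in TRC and GFP, with overlapping groups, as had Vim and Notch1. Some markers followed the library name more than the state. Prom1 stood at 17.5 and 0.277 FPKM in 7 and GFP-D, against 3.61 and 0.0376 FPKM in TRC and GFP, and Emx2 at 15.2 and 0.261 FPKM in 7 and GFP-D, against 10.1 and 0.896 FPKM in TRC and GFP, so both were higher in 7 and TRC than in the 2 libraries with GFP in their names.

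Astrocyte markers were the cell type list with the highest median, at 2.21 on the log2 scale, with 2.31 for 7 minus TRC and 1.82 for GFP-D minus GFP. Of 26 tested members (of 29), limma called Clu, Agt and Mt3 higher and none lower. The calls depended on the libraries kept, as given above for all rows. With 1 library left out, the median of the list ran between 1.90 without 7 and 2.24 without GFP. By the rule without a test, 16 lay more than 2-fold higher in all 4 pairings, against 4.89% of all rows, and none lower. In bulk RNA, fewer cells of a type and less RNA per cell cannot be told apart. Summed over the 29 markers the level was 7357 FPKM in 7 and 8869 FPKM in GFP-D, against 1364 FPKM in TRC and 1994 FPKM in GFP. Mt3, a metallothionein of astrocytes and neurons, stood at 1443 FPKM in 7 and 2261 FPKM in GFP-D, against 350.0 FPKM in TRC and 241 FPKM in GFP (log2 difference 2.63, SE 0.38, adjusted p = 0.0492).

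Several defining markers were far apart between states but missed the test. Gfap, the astrocyte intermediate filament, stood at 67.9 and 31.9 FPKM in 7 and GFP-D, against 2.36 and 5.73 FPKM in TRC and GFP (log2 difference 3.32, SE 0.52, adjusted p = 0.0522). Aqp4, the water channel of astrocyte endfeet, stood at 77.5 and 258 FPKM in 7 and GFP-D, against 2.85 and 13.3 FPKM in TRC and GFP (log2 difference 4.26, SE 0.82, adjusted p = 0.0677). Ndrg2 stood at 370.2 and 170.5 FPKM in 7 and GFP-D, against 5.45 and 22.001 FPKM in TRC and GFP (log2 difference 4.37, SE 0.70, adjusted p = 0.0547). For each of these, both differentiating libraries held several times the level of both proliferating ones. Apoe, the main lipid carrier of astrocytes, stood at 1493 and 2180.1 FPKM in 7 and GFP-D, against 18.9 and 354 FPKM in TRC and GFP (log2 difference 4.43, SE 1.31, adjusted p = 0.12), with TRC far below GFP. The glutamate transporter gene Slc1a3 stood at 405 and 322 FPKM in 7 and GFP-D, against 30.4 and 149 FPKM in TRC and GFP (adjusted p = 0.129). The other glial glutamate transporter gene, Slc1a2, stood at 15.8 and 15.8 FPKM in 7 and GFP-D, against 1.97 and 6.55 FPKM in TRC and GFP (adjusted p = 0.105). In both, TRC held less than GFP and the groups did not overlap, as in 32.6% of all rows on this side. The transcription factor Sox9 stood at 112 and 78.0 FPKM in 7 and GFP-D, against 30.7 and 36.8 FPKM in TRC and GFP (adjusted p = 0.0721).

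In other astrocyte markers the groups overlapped. The gap junction gene Gja1 stood at 82.3 and 115 FPKM in 7 and GFP-D, against 211 and 56.8 FPKM in TRC and GFP, with both differentiating values between the proliferating ones. Aldh1l1, a folate enzyme widely used to mark astrocytes, stood at 172 and 47.3 FPKM in 7 and GFP-D, against 89.6 and 43.7 FPKM in TRC and GFP, where 7 and TRC exceeded the libraries with GFP in their names. Glul, the glutamine synthetase, stood at 69.8 and 68.5 FPKM in 7 and GFP-D, against 21.4 and 103 FPKM in TRC and GFP. S100b and Gjb6 did not pass the filter, and Gjb6 was listed at 0 in all 4 libraries.

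**Figure D3:**
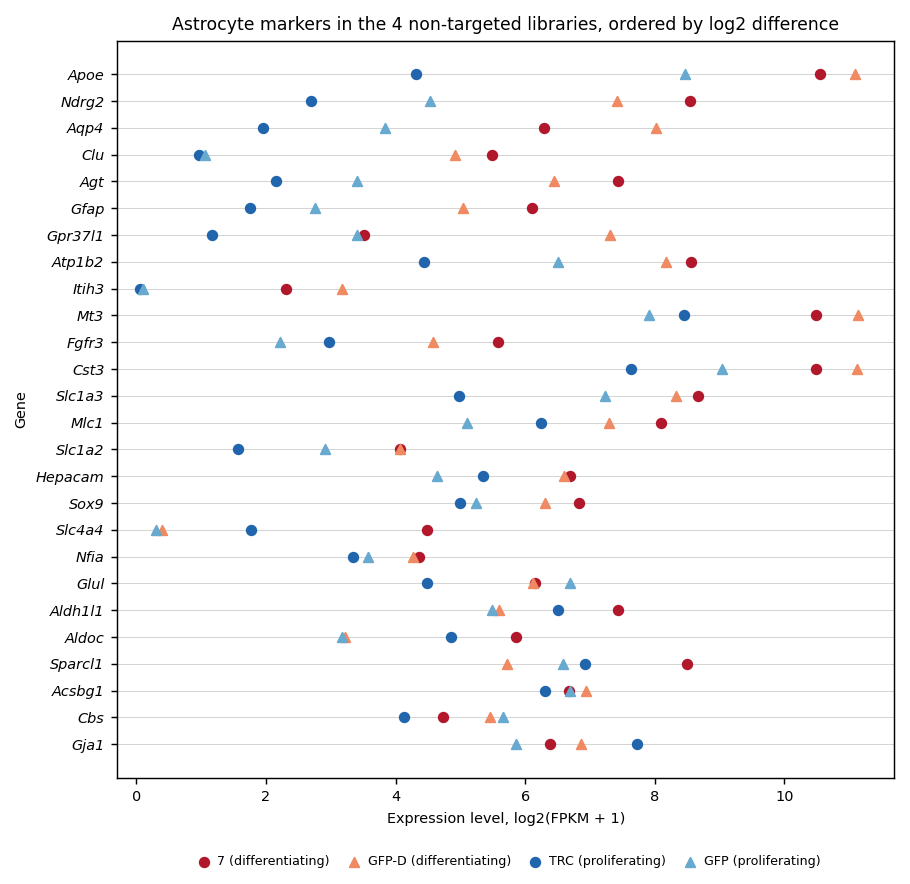
Levels of the 26 tested astrocyte markers as log2(FPKM + 1) in each non-targeted library, ordered from the highest to the lowest log2 difference; red and orange points are differentiating and blue points proliferating libraries. From Apoe down to Nfia the groups do not overlap except in Slc4a4, whereas in the genes from Glul down they do.

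Of the 82 rises called, 72 were in none of the 35 lists examined. The genes named next come from the 72 and were chosen after their values were seen. The metallothionein gene Mt1, whose protein binds zinc and copper, stood at 4385 and 4864 FPKM in 7 and GFP-D, against 609 and 563 FPKM in TRC and GFP (log2 difference 2.98, SE 0.31, adjusted p = 0.0431). Its relative Mt2 stood at 2816 and 5074 FPKM in 7 and GFP-D, against 353 and 332 FPKM in TRC and GFP (log2 difference 3.46, SE 0.39, adjusted p = 0.0431). Both therefore rose, as Mt3 did. Cntf, which encodes ciliary neurotrophic factor, stood at 23.8 and 21.8 FPKM in 7 and GFP-D, against 1.28 and 2.93 FPKM in TRC and GFP (log2 difference 2.99, SE 0.37, adjusted p = 0.0443). Cyp46a1, the cholesterol 24-hydroxylase, stood at 50.1 and 39.1 FPKM in 7 and GFP-D, against 2.58 and 2.75 FPKM in TRC and GFP (log2 difference 3.63, SE 0.28, adjusted p = 0.0431). Prdx6, a peroxiredoxin, stood at 777 and 977 FPKM in 7 and GFP-D, against 99.4 and 82.7 FPKM in TRC and GFP (log2 difference 3.25, SE 0.29, adjusted p = 0.0431). In all of these the 2 libraries of each state lay within about 3-fold of each other.

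Of 20 complement genes, 7 genes passed the filter, all with positive estimates and with a median log2 difference of 2.70. These 7 had a median of 0.279 FPKM in TRC, and C4b passed the filter through the differentiating libraries alone. The filter thus favours positive estimates in this list. Limma called C4b higher, against 0.71% of all rows, and none lower. In all 4 pairings 4 lay more than 2-fold higher, against 4.89% of all rows. C4b, which encodes component C4, stood at 16.8 and 12.8 FPKM in 7 and GFP-D, against 0.224 and 0.715 FPKM in TRC and GFP (log2 difference 3.44, SE 0.35, adjusted p = 0.0431). C3, the central component, stood at 58.9 and 764 FPKM in 7 and GFP-D, against 0.891 and 3.70 FPKM in TRC and GFP. Its log2 difference of 6.17 had an SE of 1.22 and missed the test (adjusted p = 0.0698), and GFP-D held over 10 times as much as 7. C1s, a protease of the C1 complex, stood at 17.9 and 72.3 FPKM in 7 and GFP-D, against 0.279 and 1.65 FPKM in TRC and GFP (adjusted p = 0.0561). C1qa, the C1q chain that microglia make, was listed at 0 in all 4 libraries.

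In the list of reactive astrocyte and inflammatory genes, limma called none of 17. In all 4 pairings 6 lay more than 2-fold higher, against 4.89% of all rows. The median was 3.13 for 7 minus TRC and 0.02 for GFP-D minus GFP, so the pairings differed. Steap4, a metal reductase, stood at 14.2 and 61.1 FPKM in 7 and GFP-D, against 0.756 and 0.730 FPKM in TRC and GFP (adjusted p = 0.0553), and the adhesion receptor Vcam1 at 379 and 98.1 FPKM in 7 and GFP-D, against 20.9 and 25.8 FPKM in TRC and GFP (adjusted p = 0.0756). The chemokine gene Cxcl10 stood at 247 and 17.1 FPKM in 7 and GFP-D, against 14.0 and 24.8 FPKM in TRC and GFP, high in 7 and with the other 3 libraries close together. Serpina3n, a marker of reactive astrocytes, stood at 12.7 and 32.5 FPKM in 7 and GFP-D, against 0.686 and 16.4 FPKM in TRC and GFP, so GFP reached the range of the differentiating libraries.

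Interferon-stimulated genes also differed between the pairings. Limma called none of 24, and none passed the 2-fold rule. For 7 genes both differentiating libraries lay above both proliferating ones, near the 32.6% of all rows, and for 0 below. The median log2 difference was 1.04, made of 2.71 for 7 minus TRC and -0.38 for GFP-D minus GFP, and it was 0.11 without 7. The mean log2(FPKM + 1) of the 24 genes was 5.38 in 7 and 3.495 in GFP-D, against 2.68 in TRC and 3.99 in GFP. All 24 genes were higher in GFP than in TRC and 23 were higher in 7 than in GFP-D. Ifit3, an antiviral effector, stood at 152 and 10.3 FPKM in 7 and GFP-D, against 1.30 and 5.73 FPKM in TRC and GFP, and the ubiquitin-like Isg15 at 142 and 25.1 FPKM in 7 and GFP-D, against 20.1 and 72.0 FPKM in TRC and GFP. Stat2, the interferon signal transducer, was more even, at 27.3 and 20.9 FPKM in 7 and GFP-D, against 9.56 and 11.2 FPKM in TRC and GFP (adjusted p = 0.0946). For Isg15, GFP held more than GFP-D.

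Of 30 neuron markers, 12 passed the filter, with a median of -0.27. Nsg2 was called higher and Nptx1 lower, against 0.71% and 1.08% of all rows. In all 4 pairings 2 lay more than 2-fold higher and 1 lower, against 4.89% and 4.67% of all rows. Summed over the 30 markers the level was 253 FPKM in 7 and 279 FPKM in GFP-D, against 997 FPKM in TRC and 298 FPKM in GFP. Some defining markers of young or mature neurons were low in all 4 libraries, with Dcx at most at 0.0117 FPKM, Rbfox3 at most at 0.00964 FPKM and Tubb3 at 0.4997 and 3.68 FPKM in 7 and GFP-D, against 0.0204 and 0.232 FPKM in TRC and GFP. Slc17a6, Slc32a1 and Dlx5 were listed at 0 in all 4. Scg3, a granin of secretory granules that glia can also express, stood at 22.2 and 39.0 FPKM in 7 and GFP-D, against 3.72 and 0.637 FPKM in TRC and GFP (adjusted p = 0.0561). Nefl, a neurofilament gene, stood at 7.40 and 0.940 FPKM in 7 and GFP-D, against 537 and 13.1 FPKM in TRC and GFP. Its partner Nefm stood at 2.96 and 0.893 FPKM in 7 and GFP-D, against 106 and 2.35 FPKM in TRC and GFP. Both were high in TRC alone.

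In the oligodendrocyte lineage, 9 of 20 genes passed the filter and limma called none. The lineage factors Olig1 and Olig2 lay more than 2-fold lower in all 4 pairings, against 4.67% of all rows. Olig1 stood at 197 and 303 FPKM in 7 and GFP-D, against 910.4 and 1024 FPKM in TRC and GFP (adjusted p = 0.0559). Olig2 stood at 88.0 and 112 FPKM in 7 and GFP-D, against 339 and 350.2 FPKM in TRC and GFP (adjusted p = 0.0511). Mbp, which encodes a myelin protein, was low in every library. It stood at 3.34 and 0.262 FPKM in 7 and GFP-D, against 0.206 and 0.0870 FPKM in TRC and GFP. Sox10 was at most at 0.0116 FPKM.

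Markers of other cell types were checked in the same libraries. Of 12 microglia and macrophage genes, 2 passed the filter, and Cx3cr1, Tyrobp and C1qa were listed at 0 in all 4. Their sum was 74.2 FPKM in 7 and 87.0 FPKM in GFP-D, against 27.9 FPKM in TRC and 104 FPKM in GFP. Of the others, Aif1, Itgam, Csf1r, Ptprc, Tmem119 and Trem2 were at most at 0.163 FPKM. The 10 endothelial genes summed to 3.26 and 2.18 FPKM in 7 and GFP-D, against 5.25 and 5.01 FPKM in TRC and GFP, with Cldn5 and Tie1 at 0. The 12 mesenchymal and pericyte genes summed to 14.3 and 16.5 FPKM in 7 and GFP-D, against 35.3 and 69.8 FPKM in TRC and GFP, nearly all from Fbln2. Apart from Fbln2, Flt1 (at most 4.46 FPKM) and Pdgfrb in GFP-D (5.59 FPKM), no endothelial or mesenchymal gene exceeded 2 FPKM in any library. The part of these cell types in the astrocyte, complement and interferon results was not tested. Of 10 ependymal genes 6 passed the filter, with a median log2 difference of 1.04 and none called. In all 4 pairings 2 lay more than 2-fold higher and 1, Tm4sf1 (log2 difference -1.37), lower, against 4.89% and 4.67% of all rows. The highest log2 difference was that of Foxj1, the ciliogenesis factor. It stood at 29.3 and 34.0 FPKM in 7 and GFP-D, against 10.1 and 11.1 FPKM in TRC and GFP (limma adjusted p = 0.0597).

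Genes of protein synthesis and energy supply lay lower with small gaps between libraries. All 32 cytosolic ribosomal protein genes were lower in both differentiating libraries than in both proliferating ones, against 28.9% of all rows. In all 4 pairings 23 were more than 2-fold lower, against 4.67% of all rows, but limma called none. The median log2 difference was -1.51, and it was -0.76, with 26 of 32 genes below and 3 past 2-fold, after quantile normalization. Rps6 stood at 239 and 235 FPKM in 7 and GFP-D, against 674 and 768 FPKM in TRC and GFP (adjusted p = 0.0561), and Rplp1 at 799.5 and 874 FPKM in 7 and GFP-D, against 2916 and 3181 FPKM in TRC and GFP (adjusted p = 0.0557). Outside the list, and chosen after their values were seen, Rpl12 and Rps12 were called lower, at 295 and 290.2 FPKM in 7 and GFP-D, against 1188 and 1434 FPKM in TRC and GFP for Rpl12. Of 30 respiratory chain genes, 26 lay below, with a median of -0.76 and 1 past 2-fold. That gene, Cox5b of cytochrome c oxidase, stood at 99.2 and 120.4 FPKM in 7 and GFP-D, against 297 and 256 FPKM in TRC and GFP (adjusted p = 0.0713).

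Cholesterol and fatty acid synthesis genes had 26 negative estimates of 27 and a median of -1.06, and limma called none. In all 4 pairings 1 lay more than 2-fold lower and 0 higher, against 4.67% and 4.89% of all rows. The median was -1.65 for 7 minus TRC and -0.66 for GFP-D minus GFP, and it was -0.44 without TRC. TRC exceeded GFP in all 27 genes. Glycolysis genes had a median of -0.32, none called, and 2 more than 2-fold lower in all 4 pairings, against 4.67% of all rows. Ldha stood at 307 and 126 FPKM in 7 and GFP-D, against 921 and 700.4 FPKM in TRC and GFP (adjusted p = 0.0899) and Pkm at 473 and 444 FPKM in 7 and GFP-D, against 1369 and 1068 FPKM in TRC and GFP (adjusted p = 0.0756), whereas Pfkm, a phosphofructokinase, stood at 78.0 and 97.2 FPKM in 7 and GFP-D, against 35.3 and 43.3 FPKM in TRC and GFP (adjusted p = 0.0899).

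Lysosomal genes had a median of 0.54, made of 0.96 for 7 minus TRC and -0.23 for GFP-D minus GFP, and it was -0.40 without TRC. None of 29 was called or past the 2-fold rule. Ctsd, the protease cathepsin D, stood at 494 and 843 FPKM in 7 and GFP-D, against 164 and 1131 FPKM in TRC and GFP, so the highest and the lowest level were both in proliferating cells. In glutamate and GABA uptake and metabolism, Abat was the call among 14 tested genes, against 0.71% of all rows called higher. Among glutamate and GABA receptors 7 of 23 passed the filter and none was called. In all 4 pairings 3 lay more than 2-fold higher and 1, Grin2a, lower (log2 difference -1.77), against 4.89% and 4.67% of all rows. Of the 7 estimates 4 were positive and 3 negative. Gabbr1, a subunit of the metabotropic GABA receptor, stood at 27.7 and 31.0 FPKM in 7 and GFP-D, against 5.84 and 8.16 FPKM in TRC and GFP (adjusted p = 0.0508). Gria1, of the AMPA receptor, stood at 28.2 and 91.8 FPKM in 7 and GFP-D, against 2.56 and 4.03 FPKM in TRC and GFP (adjusted p = 0.0550). GFP-D held over 3 times the Gria1 level of 7.

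The 23 DNA methylation and Polycomb genes had a median of 0.19. Limma called Uhrf1 lower and Mbd1 higher, against 1.08% and 0.71% of all rows. In all 4 pairings 4 lay more than 2-fold lower and 2 higher, against 4.67% and 4.89% of all rows. Uhrf1, which brings the maintenance methyltransferase to newly copied DNA, stood at 1.85 and 1.37 FPKM in 7 and GFP-D, against 72.6 and 30.7 FPKM in TRC and GFP (log2 difference -4.22, SE 0.47, adjusted p = 0.0431). Mbd1, a methyl-CpG binding protein, stood at 69.5 and 87.7 FPKM in 7 and GFP-D, against 15.4 and 16.3 FPKM in TRC and GFP (log2 difference 2.23, SE 0.27, adjusted p = 0.0431). The maintenance methyltransferase Dnmt1 stood at 20.9 and 22.8 FPKM in 7 and GFP-D, against 81.8 and 63.2 FPKM in TRC and GFP (adjusted p = 0.0547), and the Polycomb methyltransferase Ezh2 at 13.3 and 11.3 FPKM in 7 and GFP-D, against 77.7 and 29.2 FPKM in TRC and GFP (adjusted p = 0.102). Its relative Ezh1 stood at 14.6 and 13.5 FPKM in 7 and GFP-D, against 2.81 and 7.07 FPKM in TRC and GFP (adjusted p = 0.122). Ezh2 was below and Ezh1 above in both differentiating libraries, without a call for either.

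LSD1 complex genes had a median of 0.10 and none called of 15. In all 4 pairings 1 was more than 2-fold lower, against 4.67% of all rows. This was the deacetylase Hdac1, at 28.6 and 38.6 FPKM in 7 and GFP-D, against 109 and 81.3 FPKM in TRC and GFP (adjusted p = 0.0720). Splicing regulators had a median of -0.59 and none called of 34, with 24 negative estimates. In all 4 pairings 2 were more than 2-fold lower, against 4.67% of all rows. Their median was -1.10 for 7 minus TRC and -0.12 for GFP-D minus GFP. Srsf3, an SR protein, stood at 26.8 and 54.6 FPKM in 7 and GFP-D, against 235 and 129 FPKM in TRC and GFP (adjusted p = 0.0776). Splice forms were not analysed here.

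Among 18 tested p53 target genes the median was -0.01. Limma called Fas and Sesn1 higher and Gtse1 lower, against 0.71% and 1.08% of all rows. In all 4 pairings 2 lay more than 2-fold higher and 2 lower, against 4.89% and 4.67% of all rows. Sesn1, a sestrin that restrains growth signalling, stood at 97.2 and 75.7 FPKM in 7 and GFP-D, against 13.9 and 15.6 FPKM in TRC and GFP (log2 difference 2.46, SE 0.27, adjusted p = 0.0431). Gtse1, a microtubule-binding protein of dividing cells that also restrains p53, stood at 1.74 and 1.27 FPKM in 7 and GFP-D, against 26.7 and 15.1 FPKM in TRC and GFP (log2 difference -3.08, SE 0.38, adjusted p = 0.0443). Cdkn1a, the p21 inhibitor and classical p53 target, had overlapping groups, at 129 and 69.4 FPKM in 7 and GFP-D, against 67.5 and 143 FPKM in TRC and GFP. Cell cycle inhibitors and pocket proteins had none called of 17. Cdkn1b, the p27 inhibitor, stood at 158 and 101 FPKM in 7 and GFP-D, against 44.6 and 93.1 FPKM in TRC and GFP (adjusted p = 0.235), and Cdkn2a stood at 20.5 and 0.741 FPKM in 7 and GFP-D, against 9.83 and 0.863 FPKM in TRC and GFP, high in 7 and TRC.

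The Notch, BMP, Hedgehog and Wnt, and retinoid lists held no call. Of 13 Notch genes, Notch2 stood at 42.5 and 97.7 FPKM in 7 and GFP-D, against 6.96 and 9.55 FPKM in TRC and GFP (adjusted p = 0.0547) and the ligand gene Jag1 at 4.79 and 2.66 FPKM in 7 and GFP-D, against 21.9 and 8.63 FPKM in TRC and GFP (adjusted p = 0.125). Of 13 BMP genes, Id2, an inhibitor of basic helix-loop-helix factors, stood at 31.8 and 31.5 FPKM in 7 and GFP-D, against 97.8 and 132 FPKM in TRC and GFP (adjusted p = 0.0511). In the Notch list 1 gene, Notch2, lay more than 2-fold higher in all 4 pairings and 1, Hes1, lower. In the BMP list 1, Id2, lay lower by this rule and 0 higher. Of 19 Hedgehog and Wnt genes, Ptch1, the Hedgehog receptor, stood at 61.1 and 39.8 FPKM in 7 and GFP-D, against 13.0 and 18.4 FPKM in TRC and GFP (adjusted p = 0.0747), and Wnt5a at 51.8 and 71.5 FPKM in 7 and GFP-D, against 22.6 and 8.55 FPKM in TRC and GFP (adjusted p = 0.0894). Of 12 retinoid genes, the retinol dehydrogenase Rdh10 stood at 15.0 and 12.2 FPKM in 7 and GFP-D, against 2.62 and 5.93 FPKM in TRC and GFP (adjusted p = 0.102). By the 2-fold rule 2 Hedgehog and Wnt genes, Ptch1 and Wnt5a, lay higher and 0 lower. In the retinoid list 1, Aldh1a3 (log2 difference -1.63), lay lower and 0 higher. Over all rows 4.89% were higher and 4.67% lower by this rule. The medians of these 4 lists lay between 0.34 and 0.83.

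Matrix and adhesion genes had 1 call of 27, a fall, against 1.08% of all rows called lower. Spp1, which encodes the secreted phosphoprotein osteopontin, stood at 11.7 FPKM in 7 and 47.3 FPKM in GFP-D, against 465 FPKM in TRC and 564 FPKM in GFP (log2 difference -4.37, SE 0.64, adjusted p = 0.0498). Lamc1, a laminin chain, stood at 163 and 154 FPKM in 7 and GFP-D, against 43.9 and 60.0 FPKM in TRC and GFP (adjusted p = 0.0580), and Col6a1, a collagen VI chain, at 48.2 and 23.2 FPKM in 7 and GFP-D, against 6.22 and 7.57 FPKM in TRC and GFP (adjusted p = 0.0677). In all 4 pairings 4 of the 27 lay more than 2-fold higher, Lamc1 and Col6a1 among them, against 4.89% of all rows. By the same rule 1, Spp1, lay lower, against 4.67% of all rows. ATF4 and amino acid response genes had none called of 20, with the mitochondrial folate enzyme Mthfd2 at 4.31 and 8.70 FPKM in 7 and GFP-D, against 36.4 and 36.6 FPKM in TRC and GFP (adjusted p = 0.0517) and the transferase Shmt2 at 21.4 and 33.6 FPKM in 7 and GFP-D, against 109 and 167 FPKM in TRC and GFP (adjusted p = 0.0533). Immediate early genes had none called of 14, and the factor Atf3 stood at 5.67 and 5.71 FPKM in 7 and GFP-D, against 0.943 and 2.01 FPKM in TRC and GFP (adjusted p = 0.0903).

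**Figure D4:**
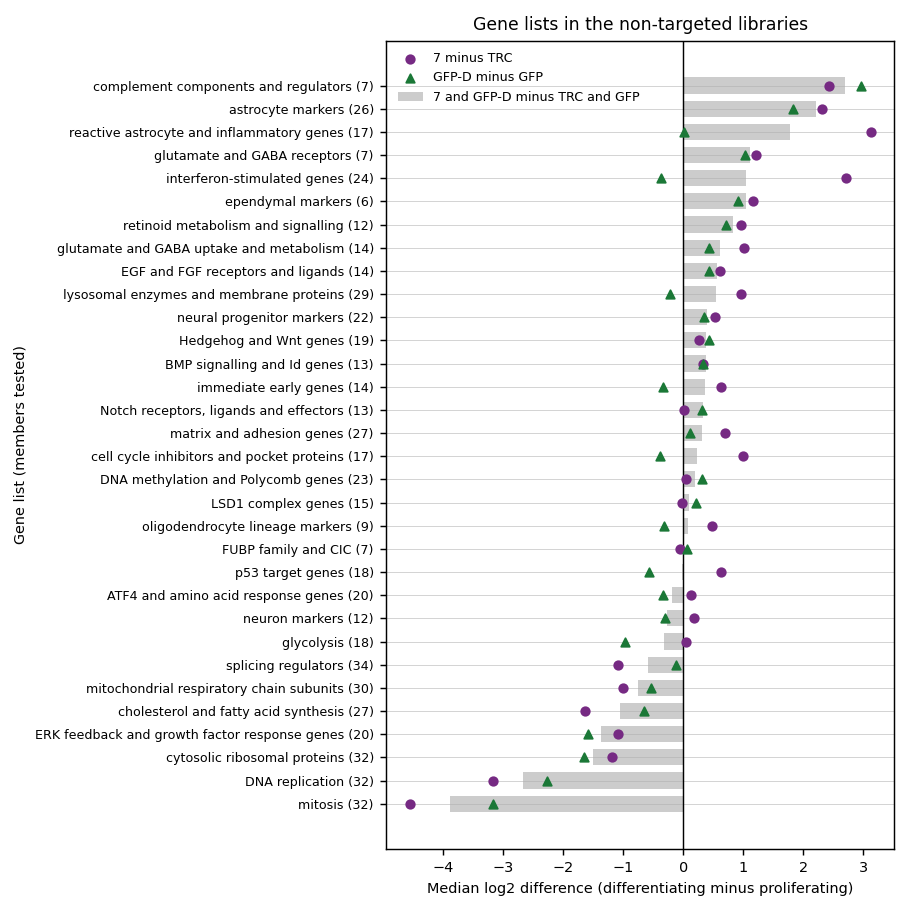
Median log2 difference over the tested members (number in brackets) of each list with at least 5 of them; grey bars set both differentiating against both proliferating libraries, circles are 7 minus TRC and triangles GFP-D minus GFP. The mitosis and DNA replication medians of -3.89 and -2.68 lie far to the left in both pairings, while the interferon, reactive and lysosomal lists lie far to the right in one pairing and near or left of 0 in the other.

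The same change of state was measured in cells with a FUBP1 or a CIC label, with 1 library per state and no library in common with the comparison above. Of the 82 genes called higher, 82 were also higher with the FUBP1 label, 77 of them by over 2-fold, and 81 with the CIC label, 68 of them by over 2-fold. Of the 125 called lower, 123 were lower with the FUBP1 label, all 123 by over 2-fold, and 121 with the CIC label, 117 by over 2-fold. Over all rows tested, 53.9% and 54.0% were higher in these arms, 15.8% and 19.7% by over 2-fold, and 46.1% and 45.8% were lower, 13.4% and 13.9% by over 2-fold. The arms share the medium and the handling of each state.

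A test of whether the change differed between arms called 0 of 11968 rows (0%) for FUBP1, with 99 at an unadjusted p under 0.05, and 0 (0%) for CIC, with 512 (limma, spread from the non-targeted libraries). The smallest adjusted p was 1.00 for FUBP1 and 0.345 for CIC. With 1 library per state in each of these arms, a miss does not show that the arms changed alike. Clu stood at 50.1 FPKM in differentiating and 2.60 FPKM in proliferating cells with the FUBP1 label, and at 78.2 FPKM in differentiating and 8.01 FPKM in proliferating cells with the CIC label. Nptx1 stood at 2.92 FPKM in differentiating and 193 FPKM in proliferating cells with the FUBP1 label, and at 0.901 FPKM in differentiating and 35.1 FPKM in proliferating cells with the CIC label. Both genes were thus several-fold apart between states in each arm. S1pr3 stood at 3.72 FPKM in differentiating and 0.136 FPKM in proliferating cells with the FUBP1 label, and at 0.388 FPKM in differentiating and 0.0164 FPKM in proliferating cells with the CIC label. In CIC cells S1pr3 stayed under 1 FPKM in both states.

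**Figure D5:**
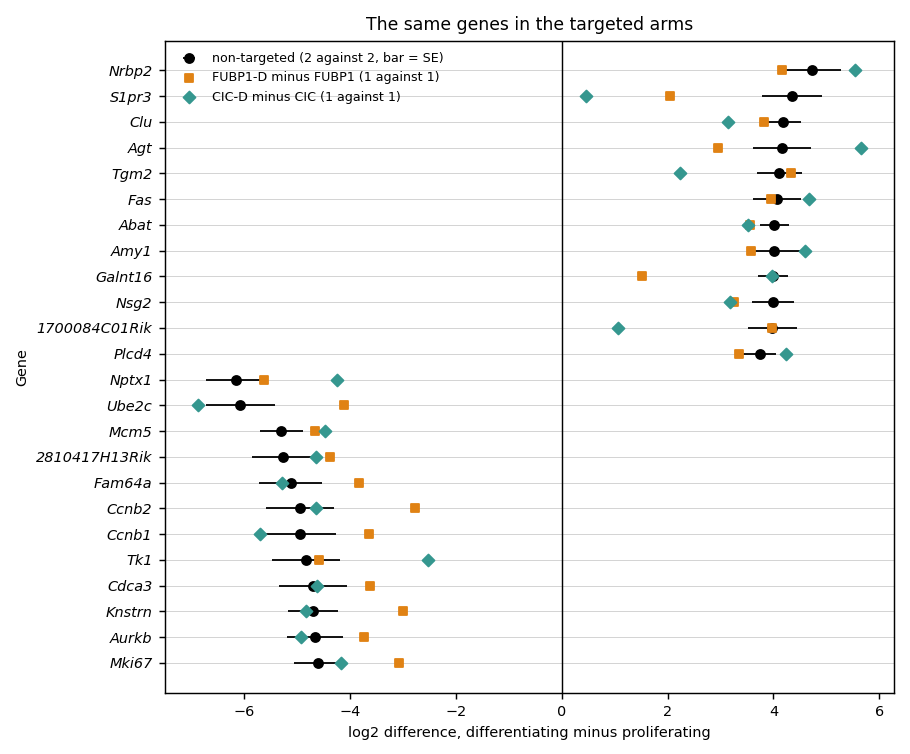
log2 difference between differentiating and proliferating cells (x axis, log2(FPKM + 1) scale) for the 12 largest rises and 12 largest falls, with the non-targeted estimate and its SE (black), the FUBP1 label (orange squares) and the CIC label (teal diamonds). All 24 genes lie on the same side of 0 in the 3 arms, between 1.51 and 4.34 and between -5.63 and -2.78 with the FUBP1 label, and between 0.45 and 5.66 and between -6.87 and -2.53 with the CIC label.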

How the data were processed

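RNA sequencing of 8 mouse neural progenitor libraries was deposited as 1 table of FPKM values per gene, which per the submitters' processing notes names bcl2fastq 2.17, cutadapt, TopHat2 2.0.11, Cufflinks 2.1.1 and the mm9 build. FPKM is already scaled to library size and transcript length by the authors, and the counts behind it and the depth of each library are unknown, so no count test was run. From the deposited FPKM, log2(FPKM + 1) was computed, rows under 1 FPKM in 3 or more of the 4 non-targeted libraries were left out, and limma 3.58.1 (R 4.3.3, eBayes with a trend, two-sided, Benjamini-Hochberg threshold 0.05) compared 7 and GFP-D with TRC and GFP, with 2 residual degrees of freedom. Fold changes on this scale understate those of low genes. Of 740 listed symbols 739 were found, and 519 rows share a symbol with another row. Overlapping genes and near-identical copies such as ribosomal proteins may share reads. The members and the 35 gene lists were chosen with earlier results of these data known. Named genes were the 12 largest rises and falls called, and in each list the 3 members of smallest p whose groups do not overlap plus its defining members; other genes were chosen after their values were seen. The fit was tested on simulated data. Promoters came from RefSeq on GRCm38.p6, searched in Python 3.11.15. Some genes are not reported here.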

Additional observations from a re-analysis of the deposited data

How the results depend on the processing

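Of the 207 calls (82 higher, 125 lower), none remained with a pseudocount of 5 or with no filter on low values, that is 0 higher and 0 lower by limma, with 3046 and 3410 rows at an unadjusted p under 0.05. Leaving out 1 library gave between 0 and 853 calls, between 0 and 379 higher and between 0 and 474 lower: 0 without 7, GFP-D or TRC, and 853 without GFP, with 1 residual degree of freedom and the lone library assumed to vary like the pair. The fit with a replicate block that pairs GFP with GFP-D and TRC with 7 called 1000 rows (551 higher, 449 lower), 14 of the 26 astrocyte markers among them. The labels give no such pairing and TRC and 7 share no name. Deviations of the GFP-named libraries from their group means correlated at 0.36 across rows. The other settings, which were a pseudocount of 0.25, a mean of at least 5 FPKM, median of ratios scaling, quantile normalization, no trend and all 8 libraries, gave between 180 and 278 calls. At a mean of at least 5 FPKM no endothelial marker remained to give a median. Genes past 2-fold in all pairings were 259 higher and 346 lower with a pseudocount of 5, and between 738 and 1527 higher and between 725 and 1287 lower with 1 library left out. That rule uses no fit, so the trend, the 8 libraries and the block give it no other value. No row was called for a difference between arms in any setting run. Of 172 genes recomputed (112 by the naming rule and 60 others in the text), 18 changed sign under at least 1 setting, and 0 of these were called. With 1 library left out, their log2 differences ran between -0.973 and 0.960 for Fubp1, between -0.0163 and 0.265 for Kdm1a, between -0.0500 and 0.195 for Cic, between -0.399 and 1.44 for Aldh1l1, between -0.584 and 0.484 for Cdkn1a, between -1.37 and 2.26 for Cdkn2a, between -0.808 and 1.97 for Ctsd, between -0.115 and 3.66 for Cxcl10 and between -1.86 and 1.82 for Emx2, and between -0.146 and 1.33 for Fos, between -1.10 and 0.766 for Gja1, between -0.564 and 1.65 for Glul, between -0.590 and 1.86 for Isg15, between -0.682 and 0.496 for Nes, between -0.0452 and 0.176 for Notch1, between -0.777 and 3.08 for Prom1, between -0.646 and 3.46 for Slc4a4 and between -0.0462 and 0.902 for Vim. The other sign changes were 0.00341 for Fubp1 with a pseudocount of 0.25, -0.0304 for Cic with median of ratios scaling, 0.111 for Cdkn1a with quantile normalization, 0.128 for Emx2 with a pseudocount of 5, 0.0463 for Gja1 with quantile normalization, 0.0750 for Nes with quantile normalization and -0.0372 for Notch1 with median of ratios scaling. All 60 called genes among the 172 lost their call with a pseudocount of 5, with no filter, and without 7, GFP-D or TRC. List medians that changed sign under at least 1 setting were those of cell cycle inhibitors, neuron, oligodendrocyte and microglia markers, lysosomal, glycolysis, LSD1 complex, p53, ATF4 and immediate early genes and the FUBP family. The cause was not tested. With 2 libraries a state and unknown depth, a gene that missed the test is not shown to be level.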
